A study of Mus musculus with 16 samples.

Results

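The 44 collagen chain genes of a mouse whole-genome array were followed in macrophages sorted from the pancreas. They are all genes whose name in the scanner files is Col, a number, the letter a and a number, and they make up 44 of the 31044 gene names on the array. Each gene was read from its brightest probe. By class, 11 encode fibrillar collagens, 8 basement membrane collagens, 6 chains of collagen VI, 9 FACIT collagens, 4 transmembrane collagens and 6 other collagens.

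The sorted cells formed 4 groups, all from female mice of a C57/B6 background aged 8 to 10 weeks: YFP+ cells from pancreatic tumor tissue (tumor YFP+, 5 arrays), YFP- cells from the same kind of tissue (tumor YFP-, 5 arrays), YFP+ cells from normal pancreas (normal YFP+, 3 arrays) and YFP- cells from normal pancreas (normal YFP-, 3 arrays). The design text names wild-type, KPC and FLT3-CRE/LSL-YFP mice, the protocol text speaks of implanted tumors, and no sample's genotype is provided, so the genotype of each animal and the kind of tumor are not given in the sources used here. Where Cre is driven from Flt3 and opens a lox-stop-lox YFP reporter, YFP marks the progeny of cells that once expressed Flt3, a receptor of haematopoietic progenitors. The sample titles carry 1 number each, 23547, 23548, 23550, 23551 and 23677 in the tumor groups and 23912, 23916 and 23917 in the normal groups. The numbers were read as animals, which the labels do not state, and p-values measure the spread between these samples. Values per array are listed in that order of numbers within each group.

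Collagens are made of 3 chains wound into a triple helix, and glycine recurs along each helical chain in the repeat Gly-X-Y. Fibrillar collagens assemble outside the cell into the fibres of connective tissue, collagen IV forms the sheet of basement membranes, collagen VI forms beaded microfibrils, FACIT collagens sit on the surface of fibres, and transmembrane collagens are anchored in the cell membrane. In the pancreas, fibroblasts and stellate cells are known as the main makers of fibrillar collagen, and pancreatic ductal tumors are known for a dense collagen-rich stroma.

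The repeat can be read in 3 of the 66 probes for these genes, which are shown because probes of the same gene are compared further on. They are 60 bases long, written 5′ to 3′ with their mm9 position, and capitals mark the glycine codons (GGN) that follow each other every 9 bases, at least 5 in a row.
Col15a1, chr4:47283786-47283845, plus strand: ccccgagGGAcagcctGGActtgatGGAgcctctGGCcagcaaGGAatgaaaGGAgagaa
Col16a1, chr4:129756457-129756516, plus strand: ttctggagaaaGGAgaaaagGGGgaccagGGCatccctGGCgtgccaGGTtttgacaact
Col25a1, chr3:130270497-130270556, plus strand: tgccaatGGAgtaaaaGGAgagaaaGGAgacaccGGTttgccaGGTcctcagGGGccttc
Such a run was found in 20 of all 39429 probes read as written. The probe of Col16a1 is the brightest of its gene, and those of Col15a1 and Col25a1 are not.

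The arrays measured 1 colour, and the signal of each probe is given as log2 of the scanner's processed signal minus the log2 of that array's 75th percentile (the scaled signal), so that 0 marks a probe at the 75th percentile. Between 64.85% and 75.39% of the spots of an array were well above background, and no spot was saturated. For a test, the probe had to exceed background clearly on 3 or more of the 16 arrays. This left 24440 genes, among them 36 of the 44 collagen genes. Of the 8 collagen genes left out, Col11a1, Col4a5, Col6a4, Col9a3 and Col22a1 were above background on 0 arrays, and Col5a2, Col10a1 and Col26a1 on 1 or 2. Col24a1 passed through tumor YFP- arrays alone, and Col6a3, Col6a5, Col6a6, Col12a1 and Col8a1 would also have fallen short without them. At the other end, 17 collagen genes were above background on all 16 arrays. Probe values of different genes are not comparable as levels.

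The sorted cells carried the macrophage label on every array: the list mean of the 12 macrophage markers, on the scaled log2 scale, lay between 3.78 and 4.40 for tumor YFP+ and between 3.83 and 4.46 for tumor YFP-. It lay between 3.94 and 4.41 for normal YFP+ and between 3.72 and 4.71 for normal YFP-. All 12 were above background on every array, and Itgam, an integrin chain of myeloid cells, averaged 6.70 ± 0.24 in YFP+ and 6.89 ± 0.17 in YFP- tumor cells (SD, n = 5 each). Between the tumor populations 0 of the 12 passed the test.

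Within tumors, collagen genes of most classes were lower in YFP+ than in YFP- macrophages. Of the 36 tested, 17 were lower and 0 were higher (limma, Benjamini-Hochberg adjusted p below 0.05 over all genes), against 1.61% of all genes called lower. The 17 comprise 6 of 9 fibrillar genes, 4 of 7 basement membrane genes, 3 of 5 collagen VI genes, 1 of 7 FACIT genes, 0 of 4 transmembrane genes and 3 of 4 others. The median log2 difference (YFP+ minus YFP-) was -1.16 over the 36 collagen genes and 0.01 over all genes tested, and 29 of the 36 differences were below 0. For 17 of the 36 genes every YFP+ array lay below every YFP- array, as it did for 2.75% of all genes. The genes that reached the filter only with tumor YFP- arrays (Col24a1, Col6a3, Col6a5, Col6a6, Col12a1 and Col8a1) were selected in part for signal there, which limits their p-values. The same limit holds for the separation of their groups. Over the 30 collagen genes above background on at least 3 of the 11 other arrays, a count added after the data had been seen, 13 were lower, with 1.32% of all such genes called lower. These 13 comprise 5 of 8 fibrillar, 4 of 7 basement membrane, 2 of 2 collagen VI, 0 of 6 FACIT, 0 of 4 transmembrane and 2 of 3 other genes, and the median difference of the 30 was -1.05. For 13 of the 30 every YFP+ array lay below every YFP- array, a share not counted over all such genes. With the slide as a block 15 of the 36 were called, without Col5a3 (adjusted p = 0.063) and Col6a3 (adjusted p = 0.0859).

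Each of the 4 slides carried 4 arrays, and every slide held both tumor populations. Within slides 1 to 4, the median difference over all collagen genes was -1.64, -1.07, -1.02 and -0.99. For the fibrillar genes the same medians were -3.59, -3.15, -3.81 and -3.90, for the basement membrane genes -1.66, -1.75, -1.47 and -0.99, and for collagen VI -3.83, -1.19, -2.72 and -3.47. These 3 classes were below 0 on every slide. So were the transmembrane medians, -0.34, -0.51, -0.66 and -0.11, and those of the other genes, -1.43, -2.06, -0.85 and -1.46. The FACIT medians, -0.29, 0.02, -0.57 and -0.07, lay on both sides of 0. On every slide the collagen VI median was the value of Col6a3, which was above background on 0 of 5 tumor YFP+ arrays. Col6a3 reached the filter only with tumor YFP- arrays, so these medians are no independent support. Col6a1 and Col6a2, with some YFP+ values below background, reached it without them. They differed by -6.17, -4.70, -5.69 and -5.84 and by -3.53, -5.04, -5.42 and -6.06. In sorted bulk samples, fewer cells that make a transcript and less transcript per cell cannot be told apart.

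Collagen I, the main fibre protein of connective tissue, had the smallest adjusted p of the fibrillar genes. The probe of Col1a1, its alpha 1 chain (chr11:94813115-94813174, mm9), read 0.05, 0.09, -1.21, -1.32 and -0.45 in tumor YFP+ cells, against 4.20, 3.66, 3.91, 4.07 and 3.24 in tumor YFP- cells. Every YFP+ array was below every YFP- array, and the difference was -4.38 ± 0.46 (log2, SE), 20.9-fold lower, with adjusted p = 0.000141 (limma). The partner chain Col1a2 (chr6:4490619-4490678) read 0.92, 0.35, -0.95, -0.19 and 0.28 in tumor YFP+ cells, against 4.61, 4.03, 4.26, 4.42 and 3.94 in tumor YFP- cells. Its groups did not overlap either, at -4.17 ± 0.61 and 18-fold lower (adjusted p = 0.00135).

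Col3a1, the chain of collagen III, which forms fibres together with collagen I (chr1:45405589-45405648), read 1.60, 0.87, 0.12, 0.64 and -0.17 in tumor YFP+ cells, against 5.02, 4.29, 4.48, 4.68 and 3.94 in tumor YFP- cells. The lowest YFP- array was above the highest YFP+ array, with a difference of -3.87 ± 0.64 (14.6-fold lower, adjusted p = 0.00322, limma). Col5a1, a chain of collagen V, which starts fibrils and limits their width (chr2:27892892-27892951), read -3.16, -2.83, -3.72, -2.59 and -2.84 in tumor YFP+ cells, against 1.96, 1.50, 1.68, 1.34 and 1.17 in tumor YFP- cells. Among the fibrillar genes it had the largest fitted difference, -4.56 ± 0.69, 23.6-fold lower (adjusted p = 0.00172).

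Both remaining called fibrillar genes were dim. Col5a3, another collagen V chain (chr9:20574592-20574651), was above background on 0 of 5 tumor YFP+ arrays, at -7.25, -7.03, -7.16, -7.18 and -7.00, and on 4 of 5 tumor YFP- arrays, at -5.83, -3.86, -3.38, -3.49 and -2.65. A fold against values below background is a bound: the mean of the brighter group was set against the lowest signal well above background on each array of the dimmer group. By this bound tumor YFP+ cells had Col5a3 at least 2.05-fold lower (adjusted p = 0.02, limma). Col24a1, a minor fibrillar chain (chr3:145214473-145214532), read -5.03, -5.42, -5.70, -5.66 and -5.33 in tumor YFP+ cells, all below background, against -4.39, -4.90, -3.80, -3.89 and -4.68 in tumor YFP- cells, of which 3 were above it. By the same bound it was at least 1.46-fold lower (adjusted p = 0.0169), a test it entered through the tumor YFP- arrays alone.

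The other 3 fibrillar genes did not pass. Col27a1, which encodes collagen XXVII of cartilage, differed by -1.12 ± 0.44 (adjusted p = 0.34) and Col11a2, a collagen XI chain of cartilage, by -0.44 ± 0.38 (adjusted p = 0.799, limma). Col2a1, the collagen of cartilage, had the widest standard error of the 36. It read -6.61, -2.21, -2.81, -4.52 and -3.76 in tumor YFP+ cells, against -0.24, -4.37, -0.69, 3.08 and -4.68 in tumor YFP- cells. Tumor YFP- array 23551 stood above the rest, the groups overlapped, and the difference was -2.60 ± 1.35 (adjusted p = 0.566).

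**Figure D1:**
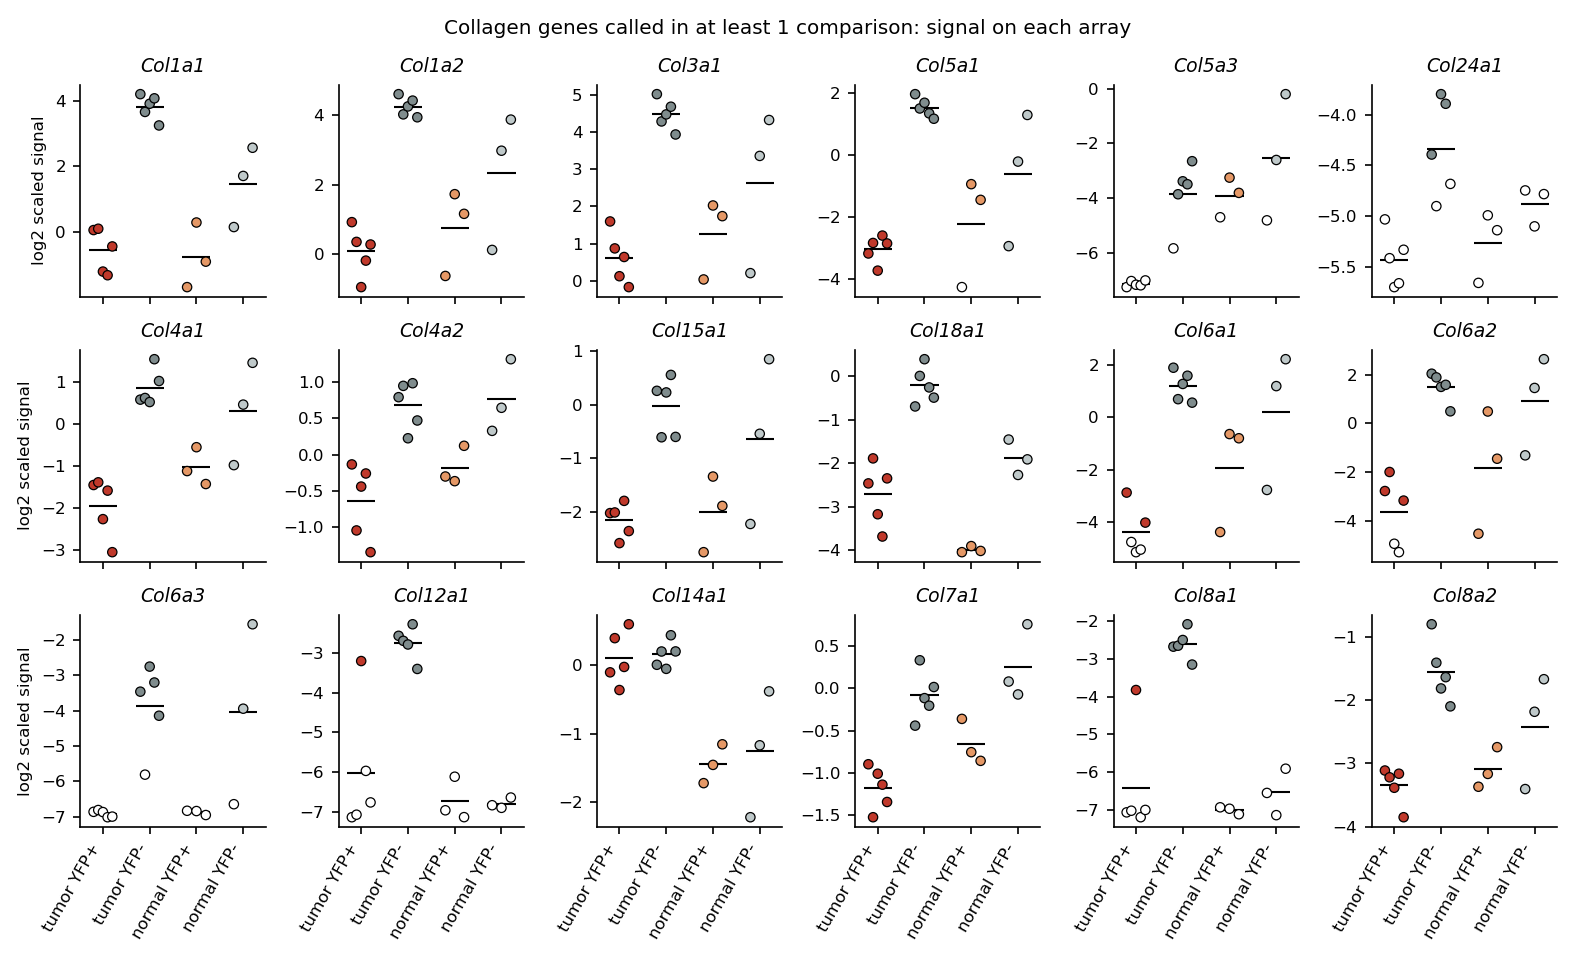
Scaled log2 signal (vertical axis) of the 18 collagen genes called in at least 1 comparison between groups, 1 panel a gene, with 1 point an array and the mean as a line. Filled points are well above background and open points are not. The tumor YFP+ points of Col1a1 lie between -1.32 and 0.09, below all 5 tumor YFP- points, which lie between 3.24 and 4.20.

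Among the basement membrane genes, the paired chains of collagen IV moved in the same direction. Col4a1 (chr8:11199009-11199068) read -1.45, -1.39, -2.26, -1.58 and -3.05 in tumor YFP+ cells, against 0.58, 0.62, 0.53, 1.55 and 1.03 in tumor YFP- cells. Its groups were apart by -2.81 ± 0.42 (7-fold lower, adjusted p = 0.00176, limma). Col4a2, the second chain of the common collagen IV heterotrimer (chr8:11448840-11448899), read -0.14, -1.05, -0.44, -0.26 and -1.35 in tumor YFP+ cells, against 0.79, 0.95, 0.23, 0.99 and 0.47 in tumor YFP- cells. Again no YFP+ array reached the YFP- range, at -1.34 ± 0.27 and 2.53-fold lower (adjusted p = 0.012). Both genes lie head to head on chromosome 8. In the RefSeq promoter table (GRCm38.p6) a start of Col4a1 on the minus strand is at 11312826 and the start of Col4a2 on the plus strand at 11312805. These starts are 21 bases apart, and transcripts from them would overlap at their 5′ ends.

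Collagens XV and XVIII are collagens of basement membrane zones, and the end fragment of collagen XVIII is known as endostatin. Col15a1 (chr4:47325273-47325332) read -2.02, -2.01, -2.58, -1.79 and -2.36 in tumor YFP+ cells, against 0.26, -0.61, 0.23, 0.55 and -0.60 in tumor YFP- cells. It was 4.34-fold lower in YFP+ cells (-2.12 ± 0.46, adjusted p = 0.0219, limma). Col18a1 (chr10:76514926-76514985) read -2.46, -1.89, -3.17, -3.69 and -2.35 in tumor YFP+ cells, against -0.69, 0.01, 0.40, -0.25 and -0.49 in tumor YFP- cells. The groups were separate, at -2.51 ± 0.31 and 5.68-fold lower (adjusted p = 0.000499).

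The collagen IV chains of specialised basement membranes did not pass. Col4a3 differed by 0.88 ± 0.68, Col4a4 by 0.97 ± 0.59 and Col4a6 by -0.57 ± 0.45, with adjusted p of 0.664 or above (limma). Col4a4 read 1.97, -0.22, 1.25, 2.50 and 0.39 in tumor YFP+ cells, against 1.08, -0.02, -0.78, -0.32 and 1.09 in tumor YFP- cells, and the groups overlapped. Its fit lacks normal YFP- array 23917, where the spot gave no usable value. Col4a3 was above background on 3 of 5 tumor YFP+ arrays and on 0 of 5 tumor YFP- arrays.

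Collagen VI is a microfibril of the pericellular matrix, made from an alpha 1, an alpha 2 and 1 longer chain. Col6a1 (chr10:76171538-76171597) read -2.86, -4.75, -5.13, -5.04 and -4.01 in tumor YFP+ cells, against 1.89, 0.69, 1.27, 1.58 and 0.56 in tumor YFP- cells. Only 2 of the 5 YFP+ values were above background, and the difference was -5.56 ± 0.88 (adjusted p = 0.00252, limma), at least 44.8-fold lower with the other 3 values raised to the lowest signal well above background. Col6a2 (chr10:76058931-76058990) read -2.77, -1.99, -4.93, -5.27 and -3.16 in tumor YFP+ cells, 3 of them above background, against 2.04, 1.88, 1.50, 1.58 and 0.49 in tumor YFP- cells. In the same way it was at least 33-fold lower (-5.12 ± 0.93, adjusted p = 0.00615).

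The long chains of collagen VI were dim. Col6a3 (chr1:92663663-92663722) read -6.86, -6.81, -6.87, -7.02 and -7.00 in tumor YFP+ cells, none above background, against -3.47, -5.81, -2.76, -3.21 and -4.15 in tumor YFP- cells, of which 4 were above it. Of the 17 called genes it lay nearest to the threshold, and was at least 2-fold lower with adjusted p = 0.0404 (limma). Next outside the threshold came Col6a5, with adjusted p = 0.149. It read -6.44, -6.81, -6.97, -7.15 and -7.06 in tumor YFP+ cells, none above background, against -3.69, -6.42, -1.94, -1.84 and -6.12 in tumor YFP- cells, of which 3 were above it. Its groups did not overlap, but only by -6.44 against -6.42, both below background. Col6a6 was above background on 0 of 5 tumor YFP+ arrays and on 1 of 5 tumor YFP- arrays (adjusted p = 0.699).

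Of the FACIT genes, 1 of 7 passed within tumors. Col12a1, whose product lines collagen I fibres (chr9:79446895-79446954), read -7.14, -7.08, -3.20, -5.97 and -6.77 in tumor YFP+ cells, with only array 23550 above background, against -2.57, -2.69, -2.78, -2.27 and -3.40 in tumor YFP- cells. The groups overlapped at that 1 array, and the fitted difference was -3.29 ± 0.59 (adjusted p = 0.00596, limma). With values below background raised to the lowest signal well above it, Col12a1 was at least 3.48-fold lower. Col14a1, which encodes collagen XIV on the surface of collagen I fibres (chr15:55352264-55352323), behaved otherwise. It read -0.10, 0.40, -0.36, -0.02 and 0.60 in tumor YFP+ cells, against 0.01, 0.20, -0.05, 0.44 and 0.21 in tumor YFP- cells, with overlapping groups and a difference of -0.06 ± 0.29 (adjusted p = 0.976).

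The other FACIT genes had differences of -0.34 to 0.23, none past the threshold. Col9a2, a chain of cartilage collagen IX, read -1.42, -2.77, -2.05, -1.36 and -2.24 in tumor YFP+ cells, against -0.87, -2.06, -2.10, -1.77 and -1.34 in tumor YFP- cells. Its ranges overlapped (-0.34 ± 0.34, adjusted p = 0.835, limma). Col9a1, Col19a1 and Col20a1 had adjusted p of 0.948 or above, and Col16a1 is taken up with its other probes.

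None of the transmembrane genes passed within tumors. Col23a1, which encodes collagen XXIII, read -0.85, -2.14, -0.98, -0.80 and -2.47 in tumor YFP+ cells, against -0.81, -1.97, -2.44, -1.94 and -0.44 in tumor YFP- cells. The difference was 0.07 ± 0.44 (adjusted p = 0.98, limma). Col25a1, whose product is found in amyloid plaques of human brain, read -2.28, -2.76, -2.70, -2.82 and -2.73 in tumor YFP+ cells, against -2.99, -2.20, -3.17, -3.23 and -1.64 in tumor YFP- cells. It differed by -0.01 ± 0.27, Col13a1 by -0.13 ± 0.42 and Col17a1, the hemidesmosomal collagen of epithelia, by -0.99 ± 0.71, with adjusted p of 0.734 or above.

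Collagens outside these classes included 3 lower genes. Col8a1, a chain of the network-forming collagen VIII (chr16:57624471-57624530), read -7.07, -7.03, -3.83, -7.20 and -7.00 in tumor YFP+ cells, again with only array 23550 above background, against -2.68, -2.65, -2.50, -2.08 and -3.15 in tumor YFP- cells. The ranges did not meet, and the fitted difference, which rests on values below background, was -3.81 ± 0.53 (adjusted p = 0.00105, limma). With those values raised to the lowest signal well above background, it was at least 4.15-fold lower. Its partner Col8a2 (chr4:125991441-125991500) read -3.11, -3.22, -3.39, -3.16 and -3.85 in tumor YFP+ cells, against -0.80, -1.41, -1.82, -1.64 and -2.10 in tumor YFP- cells. It was 3.47-fold lower (-1.79 ± 0.31, adjusted p = 0.00456).

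Col7a1, the chain of the anchoring fibrils that fasten epithelium to stroma (chr9:108886861-108886920), read -0.90, -1.53, -1.01, -1.14 and -1.35 in tumor YFP+ cells, against -0.44, 0.34, -0.11, -0.20 and 0.02 in tumor YFP- cells. The gap was small but the groups did not overlap (-1.10 ± 0.20, 2.15-fold lower, adjusted p = 0.00637, limma). Col28a1 differed by 0.09 ± 0.38 and did not pass (adjusted p = 0.97).

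**Figure D2:**
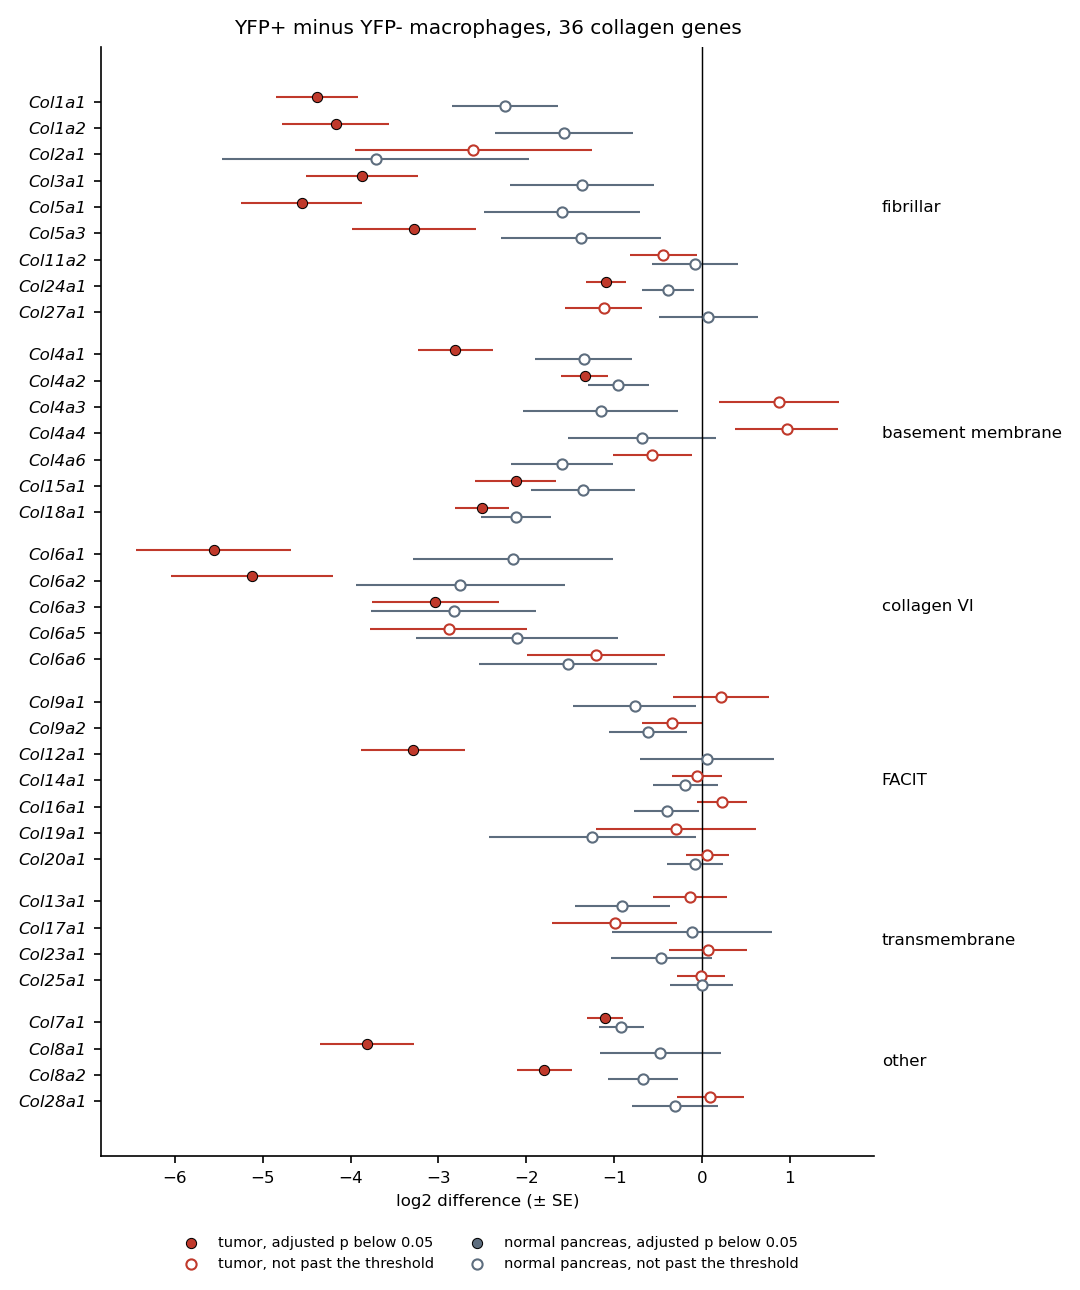
Log2 difference of YFP+ minus YFP- macrophages with its standard error (horizontal axis) for the 36 collagen genes tested, by class, in tumor (upper mark of each pair) and in normal pancreas (lower mark). Filled marks passed the adjusted threshold: 17 in tumor, all left of 0, and 0 in normal pancreas.

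Calls near the threshold depended on single arrays and on the processing. Over 33 other settings, 11 of the 17 calls within tumors held in every setting in which the gene was tested. Col4a2 lost its call without both arrays numbered 23548 (adjusted p = 0.0871), and Col7a1 lost it without both arrays numbered 23677 (adjusted p = 0.0513). Leaving out 1 array alone ended the call of Col15a1 for tumor YFP+ arrays 23550 and 23677 and tumor YFP- arrays 23547, 23550 and 23551, with adjusted p between 0.0558 and 0.0672. It ended that of Col24a1 for tumor YFP+ arrays 23550 and 23551 and tumor YFP- array 23551 (adjusted p between 0.0503 and 0.0548). Col5a3 was no longer called without tumor YFP+ array 23547, 23550 or 23551 or tumor YFP- array 23550, 23551 or 23677 (adjusted p between 0.0503 and 0.0583). Col6a3, which started nearest to the threshold, lost its call without any 1 of 13 arrays: normal YFP+ 23912, 23916 and 23917, normal YFP- 23916, all 5 of tumor YFP+, and tumor YFP- 23547, 23550, 23551 and 23677 (adjusted p between 0.0554 and 0.105). With quantile normalization and with the deposited values, Col15a1, Col24a1, Col5a3 and Col6a3 all lost their call (adjusted p between 0.0505 and 0.159). With normexp background correction Col5a3 (-1.32, adjusted p = 0.0988) and Col24a1 (-0.58, adjusted p = 0.162) lost it, and Col6a3 (-1.59), Col12a1 (-1.32) and Col8a1 (-1.64) kept it at smaller differences. Without a filter Col6a3 was not called (adjusted p = 0.0527). All of these differences stayed below 0.

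Promoter sequence was compared because genes of several classes were lower together. RefSeq promoters (GRCm38.p6) that begin at the annotated gene start were matched for 13 of the 44 genes, 10 of them called lower in tumor YFP+ cells, and the 150 bases before the start were searched on both strands. The CCAAT box was sought as CCAAT, which appears as ATTGG when it lies on the opposite strand. A GC box was sought as GGGCGG, with CCGCCC as its opposite. A TATA box was sought as TATAAA, with TTTATA as its opposite. Shown are 4 genes called lower and Col9a2, which was not called, 5′ to 3′ on the gene's strand, with matches on either strand in capitals.
Col1a2, chr6:4505468-4505617, plus strand: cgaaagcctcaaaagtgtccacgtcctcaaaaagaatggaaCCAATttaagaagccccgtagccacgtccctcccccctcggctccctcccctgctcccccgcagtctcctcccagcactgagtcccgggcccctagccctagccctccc
Col3a1, chr1:45311388-45311537, plus strand: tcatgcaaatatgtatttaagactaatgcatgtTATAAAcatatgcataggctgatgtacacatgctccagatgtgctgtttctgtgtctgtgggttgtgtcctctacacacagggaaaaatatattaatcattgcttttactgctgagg
Col6a1, chr10:76726045-76726194, minus strand: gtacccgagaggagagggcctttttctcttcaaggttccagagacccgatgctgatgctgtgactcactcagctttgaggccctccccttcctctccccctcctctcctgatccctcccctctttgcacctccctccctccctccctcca
Col8a1, chr16:57754738-57754887, minus strand: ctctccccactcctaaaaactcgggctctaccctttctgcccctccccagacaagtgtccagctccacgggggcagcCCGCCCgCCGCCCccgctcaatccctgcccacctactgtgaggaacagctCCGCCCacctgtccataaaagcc
Col9a2, chr4:121039416-121039565, plus strand: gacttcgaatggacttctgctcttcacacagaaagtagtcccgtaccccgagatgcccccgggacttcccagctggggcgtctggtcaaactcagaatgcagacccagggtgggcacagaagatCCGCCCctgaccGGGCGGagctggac
No 1 motif was present in all of these windows. Col1a2 held CCAAT, Col3a1 held TATAAA, Col8a1 and Col9a2 held GGGCGG on at least 1 strand, and Col6a1 held none of these letters. A match could lie anywhere in the window. That of Col3a1 lies nearer to the far end of the window than to the gene start, so it is given as a match of letters only. Among the 10 called genes, 2 held CCAAT, 5 held GGGCGG and 1 held TATAAA, while the shares among 19827 gene starts were 25%, 23.1% and 9.38%.

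Genes that process collagen followed only in part. Of 33 such genes tested, 9 were lower and 0 higher in tumor YFP+ cells, against 1.61% of all genes called lower. The median difference was -0.41. Lox and Loxl1, which cross-link collagen, were at least 11.6-fold lower (adjusted p = 4.61e-05) and 9.21-fold lower (adjusted p = 0.000101, limma). Serpinh1, the collagen chaperone HSP47, averaged -2.88 ± 0.23 in tumor YFP+ and 0.83 ± 0.26 in tumor YFP- cells (SD, n = 5 each), 13.1-fold lower (adjusted p = 0.00228). Pcolce, the enhancer of procollagen C-proteinase, and Adamts2, the procollagen N-proteinase, differed by -4.06 ± 0.38 and -2.45 ± 0.23 (adjusted p = 5.06e-05 and 5.73e-05). Fkbp10 and P3h4, both of the endoplasmic reticulum, and the cross-linking gene Loxl2 were also lower, by -4.42 ± 0.59, -4.35 ± 0.82 and -1.65 ± 0.32. Of the 33 genes, 24 did not pass.

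Of 13 genes for collagen receptors and uptake, 2 were lower and 0 higher in tumor YFP+ cells, against 1.61% of all genes called lower. The median difference was -0.05. Mrc2, a collagen uptake receptor known from fibroblasts, averaged -5.00 ± 0.81 in tumor YFP+ and -0.46 ± 0.39 in tumor YFP- cells (SD, n = 5 each), at least 18.3-fold lower with values below background raised as for Col6a1 (adjusted p = 0.000593, limma). Itga2, a subunit of a collagen-binding integrin, was at least 2.47-fold lower in the same way (adjusted p = 0.0304).

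Markers of other cell types differed between the tumor populations together with the collagen genes. The 23 fibroblast and stellate cell markers tested averaged -3.38 to -2.85 in tumor YFP+ arrays, against -1.26 to -0.73 in tumor YFP- arrays. Of them 13 were lower in tumor YFP+ cells and 0 higher, against 1.61% of all genes called lower. Their median difference was -2.04. Dcn, which encodes the collagen-binding decorin, averaged -1.60 ± 0.96 in tumor YFP+ and 3.54 ± 0.72 in tumor YFP- cells (SD, n = 5 each). Lum, Pdgfra, Efemp1 and Rgs5 were above background on 0 of 5 tumor YFP+ arrays, and 0 of the 23 markers were so in tumor YFP- arrays. Tagln and Thy1 did not pass, at 0.52 ± 0.46 and -0.73 ± 0.48. In normal pancreas the same list averaged -3.28 to -2.52 in YFP+ and -2.49 to -1.04 in YFP- arrays.

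Of 15 ductal and epithelial markers, 7 were lower in tumor YFP+ cells (list mean -1.72 to -0.93 in tumor YFP+, against -0.11 to 0.21 in tumor YFP-), as were 2 of 4 mesothelial markers (list mean -4.07 to -3.32 in tumor YFP+, against -1.75 to -0.86 in tumor YFP-). Of 14 endothelial markers 0 were called (list mean -2.35 to -1.49 in tumor YFP+, against -2.10 to -0.98 in tumor YFP-). Of 15 acinar markers 5 were lower and 1 higher in tumor YFP+ cells (median difference -0.67). The acinar list mean lay between -2.30 and -1.73 in tumor YFP+ and between -1.98 and -0.83 in tumor YFP- arrays, against 3.34 and 3.77 for normal YFP+ and 3.72 and 5.05 for normal YFP- arrays. Among all genes, 1.61% were called lower and 0.782% higher in tumor YFP+ cells. The part of these other cell types in the collagen differences was not tested.

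**Figure D3:**
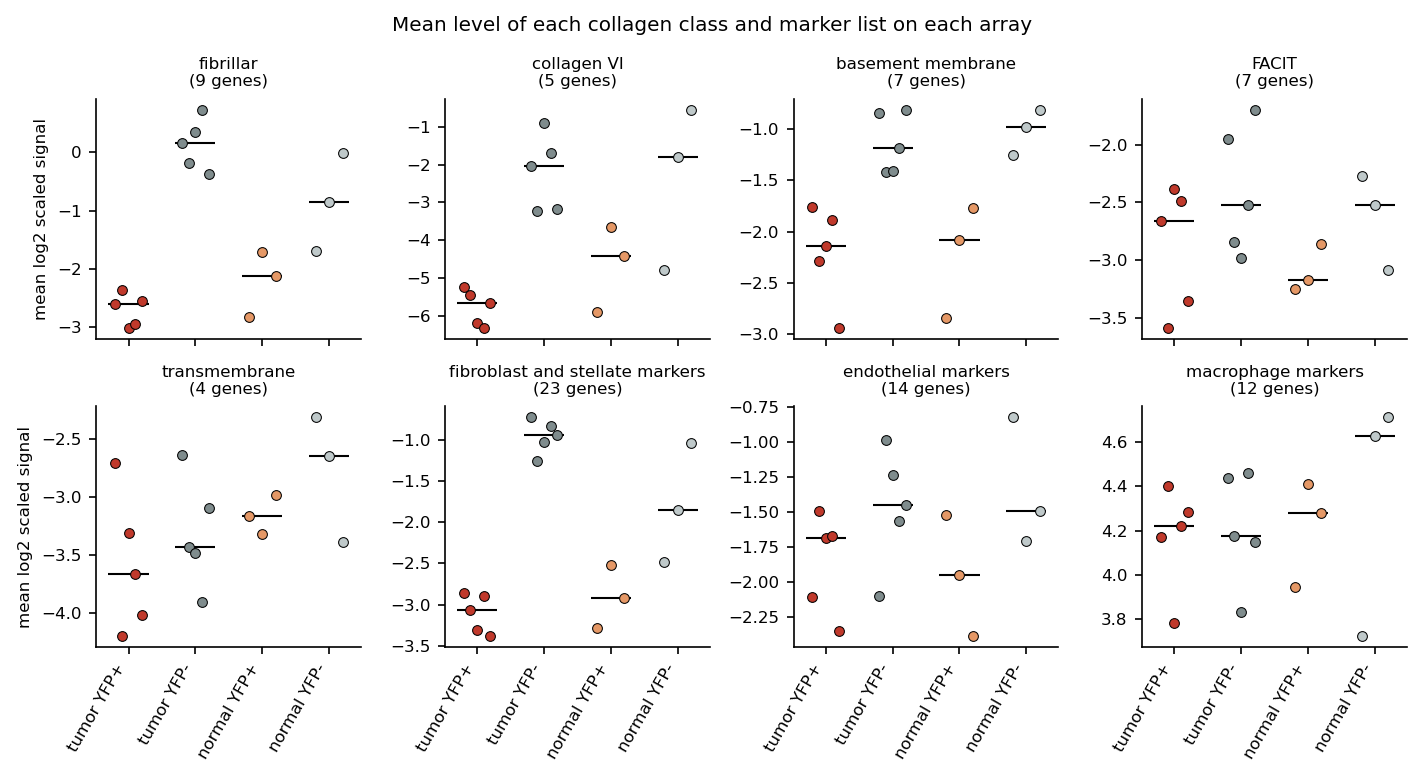
Mean scaled log2 signal (vertical axis, its range differs by panel) of the tested genes of 5 collagen classes and of 3 marker lists, with 1 point an array and the group median as a line. Fibrillar, collagen VI and basement membrane genes and fibroblast and stellate markers separate the 2 tumor populations, with all tumor YFP+ points below all tumor YFP- points. The macrophage markers overlap in all 4 groups. Col6a3, Col6a5 and Col6a6 (collagen VI) and Col24a1 (fibrillar) reached the filter only with tumor YFP- arrays. Part of the separation of these panels was therefore set by the selection.

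In normal pancreas, YFP+ macrophages showed differences of the same sign but none that passed. Of the 36 collagen genes 0 were called, against 0.0205% of all genes (limma). At an unadjusted p below 0.05 there were 9, 25% of the tested members, where 7.63% of all genes reached it. The median difference was -0.93 over the collagen genes and -0.10 over all genes, and 34 of 36 were below 0. Within the 2 slides that held both normal populations, slides 2 and 3, the medians were -1.63 and -0.32. Each compared 1 YFP+ with 1 YFP- array: 23912 with 23917 on slide 2, and 23917 with 23912 on slide 3. The fibrillar medians were -4.25 and -0.01. On slide 3, Col1a2 (1.04), Col3a1 (1.53), Col5a1 (1.49) and Col6a1 (1.97) were above 0, while 25 of 36 genes were below 0. With the slide as a block the count of calls remained at 0.

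The smallest adjusted p in this comparison among the members was that of Col18a1. It read -4.05, -3.91 and -4.02 in normal YFP+ cells, against -1.45, -2.27 and -1.91 in normal YFP- cells, without overlap, and differed by -2.11 ± 0.40 (adjusted p = 0.109, limma). Col1a1 read -1.69, 0.28 and -0.91 in normal YFP+ cells, against 0.15, 1.70 and 2.56 in normal YFP- cells, with overlap and a difference of -2.24 ± 0.60 (adjusted p = 0.198). Col6a3 was above background on 0 normal YFP+ arrays and read -6.65, -3.95 and -1.56 in normal YFP- cells, 2 of them above background (adjusted p = 0.372). Col7a1 read -0.36, -0.76 and -0.86 in normal YFP+ cells, against 0.08, -0.07 and 0.76 in normal YFP- cells (-0.92 ± 0.26, adjusted p = 0.244).

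Both arrays numbered 23912 were the lowest of their groups. The mean over the collagen genes was -3.47 on normal YFP+ array 23912, against -2.72 and -2.79 on normal YFP+ arrays 23916 and 23917, and the fibroblast list averaged -3.28, against -2.52 and -2.92. In normal YFP- cells the mean over the collagen genes was -2.37 on array 23912, against -1.81 and -1.54 on arrays 23916 and 23917, and the fibroblast list averaged -2.49, against -1.86 and -1.04. Col1a2 read -0.63, 1.73 and 1.16 in normal YFP+ cells, against 0.12, 2.98 and 3.88 in normal YFP- cells, and Col3a1 read 0.04, 2.03 and 1.74 in normal YFP+ cells, against 0.21, 3.36 and 4.33 in normal YFP- cells. Array 23912 was the lowest for both genes in each population. Collagen VI was spread as widely: Col6a1 read -4.37, -0.64 and -0.80 in normal YFP+ cells, against -2.77, 1.19 and 2.21 in normal YFP- cells, and Col6a2 read -4.52, 0.49 and -1.45 in normal YFP+ cells, against -1.31, 1.45 and 2.63 in normal YFP- cells. Without normal YFP- array 23912, Col1a1 (-2.90, adjusted p = 0.0207) and Col6a3 (-4.12, adjusted p = 0.015) were called lower in normal YFP+ cells. Without normal YFP+ array 23912 the count was 0. Without both arrays numbered 23912, Col6a3 was called (-4.14, adjusted p = 0.042).

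The YFP difference was then compared between the tissues. In the test of the difference itself (tumor minus normal pancreas) 0 of 36 collagen genes passed, against 0.0982% of all genes, and 8 had an unadjusted p below 0.05, where 5.97% of all genes did (limma). The lowest adjusted p were those of Col8a1, at -3.34 ± 0.87 (adjusted p = 0.282), and Col12a1, at -3.34 ± 0.96 (adjusted p = 0.397). For both, tumor YFP+ array 23550 was the only array outside tumor YFP- above background. Without that array Col8a1 (-3.99, adjusted p = 0.000476) and Col12a1 (-4.05, adjusted p = 0.00213) passed. Every remaining array outside tumor YFP- was then below background, so the size of both values rests on signals near background. Both genes reached the filter only with tumor YFP- arrays, and this array was left out after the data had been seen. The 2 p-values are therefore no independent support. For Col1a1 the difference of differences was -2.14 ± 0.76 and for Col18a1 -0.39 ± 0.51, with adjusted p of 0.612 and 0.935.

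The comparisons between tissues use the same arrays as those within tissues. Tumor and normal YFP+ macrophages differed in 3 of 36 collagen genes, a share below the 12.1% of all genes called in either direction. Of the 3, 2 were higher and 1 lower in tumor. Col14a1 read -0.10, 0.40, -0.36, -0.02 and 0.60 in tumor YFP+ cells, against -1.73, -1.46 and -1.16 in normal YFP+ cells. All 5 tumor values were above all 3 normal ones, and it was 2.94-fold higher (1.55 ± 0.33, adjusted p = 0.006, limma). Col18a1 was 2.43-fold higher in tumor YFP+ cells, at -2.46, -1.89, -3.17, -3.69 and -2.35, against -4.05, -3.91 and -4.02 in normal YFP+ cells (1.28 ± 0.36, adjusted p = 0.0297). Col5a3 was below background on all tumor YFP+ arrays and read -4.70, -3.25 and -3.81 in normal YFP+ cells, 2 of them above it, so that it was at least 1.94-fold lower in tumor (adjusted p = 0.0172).

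Of these 3 calls, only that of Col14a1 held in all 33 other settings. The call of Col18a1 was lost without any 1 of the normal YFP+ arrays 23912 (adjusted p = 0.0919), 23916 (adjusted p = 0.0782) and 23917 (adjusted p = 0.0923), and without tumor YFP+ array 23547 (adjusted p = 0.0598), 23548 (adjusted p = 0.0588) or 23677 (adjusted p = 0.0668). It was also lost with normexp (0.62, adjusted p = 0.143) and with the mean over its probes (0.75, adjusted p = 0.241). The call of Col5a3 was lost without normal YFP+ array 23916 (adjusted p = 0.0868) or 23917 (adjusted p = 0.0648), with normexp (-0.97, adjusted p = 0.233), with quantile normalization (adjusted p = 0.0516) and with the deposited values (adjusted p = 0.0519). With the mean over probes Col14a1 kept its call at a smaller difference. The median over the 36 genes was -0.25, against -0.04 over all genes, and within the 3 slides that held both YFP+ groups it was -0.70, -0.12 and -0.42. Col1a1, Col1a2 and Col3a1 did not pass in YFP+ cells, with differences of 0.20 ± 0.53, -0.67 ± 0.70 and -0.65 ± 0.73. With the slide as a block 3 were called as well, Col23a1 (-1.31, adjusted p = 0.00279) being lower in tumor and Col5a3 no longer called (adjusted p = 0.0518). Without both arrays numbered 23912 there were 5, Col5a1 (-1.84), Col6a1 (-3.64) and Col6a2 (-3.14) being lower in tumor, and without normal YFP+ array 23912 alone Col6a1 was called (-3.64, adjusted p = 0.0364). In the same comparison 12 of 15 acinar markers were lower and 1 higher in tumor, 4 of 15 ductal and epithelial markers were higher, and of 23 fibroblast and stellate markers 2 were higher and 2 lower. Among all genes, 6.08% were called higher and 6.03% lower in this comparison. The part of these cell types in the collagen values was not tested.

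YFP- macrophages of tumors exceeded those of normal pancreas in 5 of 36 collagen genes, against 8.08% of all genes called higher, and 0 were lower. Over the 30 genes that reached the filter without tumor YFP- arrays, 3 were higher, with 7.93% of all such genes called higher. That share is near the one over all genes, so the count is not read as particular to collagen genes. Col1a1 read 4.20, 3.66, 3.91, 4.07 and 3.24 in tumor YFP- cells, against 0.15, 1.70 and 2.56 in normal YFP- cells, 5.08-fold higher without overlap (2.34 ± 0.53, adjusted p = 0.00788, limma). Col18a1 read -0.69, 0.01, 0.40, -0.25 and -0.49 in tumor YFP- cells, against -1.45, -2.27 and -1.91 in normal YFP- cells, 3.19-fold higher (1.67 ± 0.36, adjusted p = 0.00519). Col14a1 read 0.01, 0.20, -0.05, 0.44 and 0.21 in tumor YFP- cells, against -2.23, -1.17 and -0.38 in normal YFP- cells, 2.68-fold higher (1.42 ± 0.33, adjusted p = 0.0091). Again the tumor values lay above all normal ones. Col14a1 was called between the tissues in both populations and between the populations in neither tissue (-0.19 ± 0.37 in normal pancreas, adjusted p = 0.913).

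Col12a1 and Col8a1 were below background on all normal arrays of both populations, where Col12a1 ranged -6.90 to -6.64 and Col8a1 -7.14 to -5.91 in YFP- cells. In tumor YFP- cells, Col12a1 was at least 3.67-fold higher (adjusted p = 0.000944) and Col8a1 at least 4.02-fold higher (adjusted p = 0.000527, limma). Both genes reached the filter only with tumor YFP- arrays, so a higher signal there was part of their selection and these p-values are no independent support. Neither was tested when at least 8 arrays had to be above background. All 5 of these calls held in each of the other settings in which the gene was tested. With normexp Col12a1 differed by 1.58 and Col8a1 by 1.65, with the mean over probes Col18a1 by 2.69 and Col14a1 by 0.94, and without normal YFP- array 23912 Col14a1 by 0.94. Within the 3 slides that held both YFP- groups, the median over fibrillar genes was 0.15, 2.16 and 1.63 and over all collagen genes -0.37, 0.37 and 0.32. Over all arrays the median over all collagen genes was 0.17, against -0.16 over all genes. Fibrillar genes near the threshold were Col1a2 (1.93 ± 0.70, adjusted p = 0.0791), Col5a1 (2.15 ± 0.79, adjusted p = 0.0833) and Col3a1 (1.85 ± 0.73, adjusted p = 0.106).

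Single arrays and the slide moved this count. With the slide as a block it was 7, Col23a1 (-1.17, adjusted p = 0.00513) and Col4a3 (-1.96, adjusted p = 0.032) being lower in tumor. Without normal YFP- array 23917 it was 9, with Col1a2 (2.70), Col3a1 (2.70), Col5a1 (3.10) and Col8a2 (1.24) higher in tumor. Without both arrays numbered 23677 it was 8, with Col20a1 (-0.87), Col23a1 (-1.76) and Col4a3 (-2.35) lower in tumor. Of the arrays left out alone, tumor YFP- 23677 added Col20a1 and Col23a1 as lower, tumor YFP- 23550 added Col6a6 (-2.21) as lower, normal YFP- 23912 added Col5a3 (-2.44) as lower, and normal YFP+ 23912 added Col5a1 as higher.

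Markers of other cell types also differed between tumor and normal YFP- cells. Of 23 fibroblast and stellate markers 6 were higher and 0 lower in tumor (median difference 0.80). Of 15 ductal and epithelial markers 8 were higher and 1 lower (median 1.66), and of 15 acinar markers 13 were lower and 0 higher. Among all genes, 8.08% were called higher and 7.69% lower in this comparison. The part of these cell types in the 5 collagen calls was not tested.

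**Figure D4:**
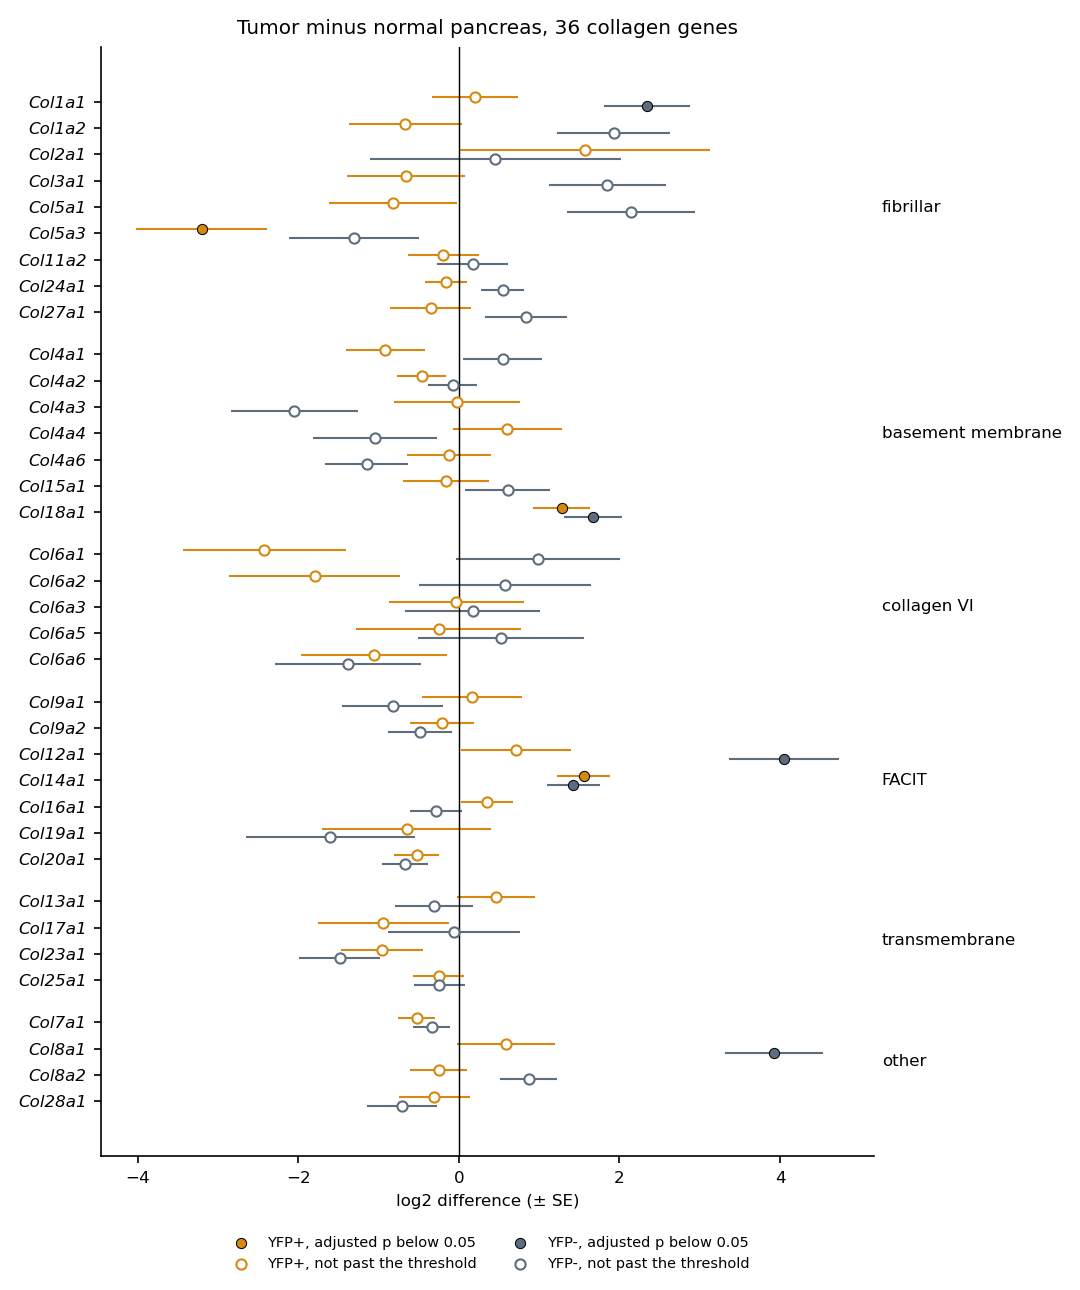
Log2 difference of tumor minus normal pancreas with its standard error (horizontal axis) for the 36 collagen genes tested, by class, in YFP+ (upper mark of each pair) and YFP- macrophages (lower mark). Filled marks passed the adjusted threshold, 3 in YFP+ and 5 in YFP- cells, with Col14a1 and Col18a1 right of 0 in both.

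In several genes the probe decided the value. Of the collagen genes, 9 had more than 1 probe above the filter, and in 6 the probes differed in sign within tumors. For Col16a1, a FACIT collagen, the brightest probe is the glycine-repeat probe shown above, and it read -0.73, -1.59, -1.16, -0.84 and -1.64 in tumor YFP+ cells, against -0.75, -1.66, -1.99, -1.81 and -0.91 in tumor YFP- cells (0.23 ± 0.28, adjusted p = 0.87, limma). Its 2 other probes, farther along the gene at chr4:129776333-129776392 and chr4:129776460-129776519, gave -1.44 ± 0.23 (adjusted p = 0.00227) and -2.88 ± 0.52 (adjusted p = 0.00598) when every probe was fitted by itself, which was done after the data had been seen. With the mean over its probes, Col16a1 was called lower in tumor YFP+ cells (-1.36, adjusted p = 0.00348).

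Col15a1 showed a like gap in size but not in sign. Its glycine-repeat probe differed by -1.11 ± 0.29 (adjusted p = 0.0638), while 2 probes farther along the gene gave -2.12 ± 0.46 and -2.70 ± 0.65, both called. The second probe of Col18a1 gave -4.01 ± 0.41, larger than the -2.51 ± 0.31 of the brightest one. The remaining disagreements were small or rested on wide errors: the probes of Col4a4 ranged from -0.35 to 0.97, those of Col20a1 from -0.64 to 0.06, those of Col23a1 from -0.29 to 0.26, those of Col14a1 from -0.06 to 0.01 and those of Col25a1 differed by -0.01 ± 0.27 and 0.00 ± 0.31. The annotation used here is not of the array's build, so exon and UTR of each probe are not given.

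**Figure D5:**
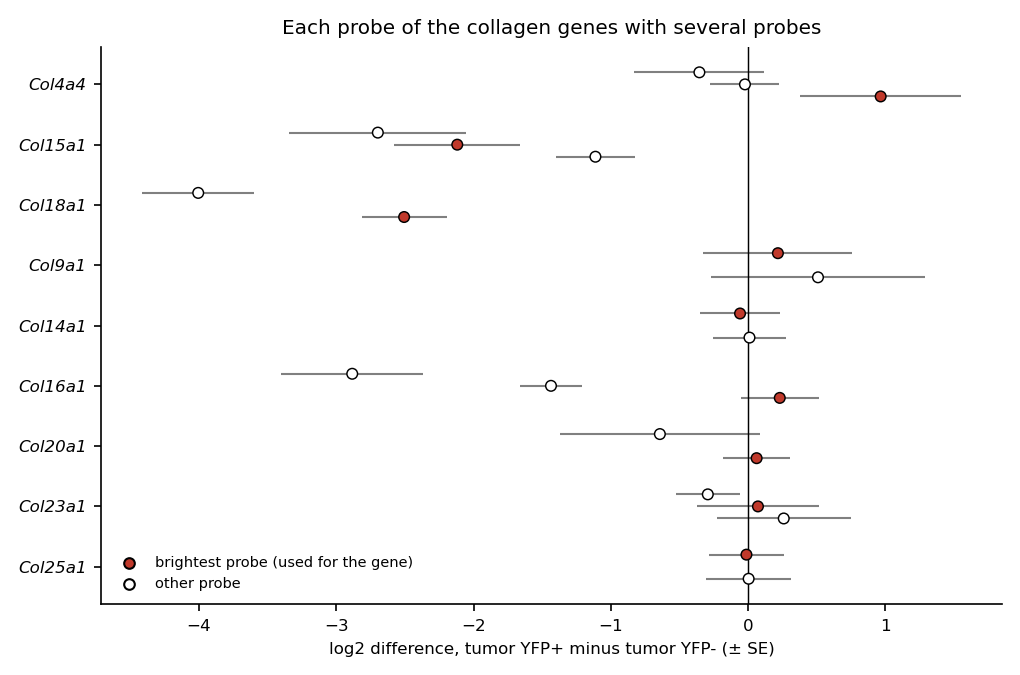
Log2 difference of tumor YFP+ minus tumor YFP- with its standard error (horizontal axis) for each probe of the 9 collagen genes with several probes past the filter. The brightest probe, used for the gene, is filled. The Col16a1 marks lie at -2.88, -1.44 and 0.23.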

How the data were processed

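RNA of sorted cells was hybridised to 16 one-colour (Cy5) Agilent arrays on 4 slides of 4. The deposited scanner files hold intensity values, background-subtracted by Agilent Feature Extraction 11.5.1.1 per the file headers, after whole-transcriptome amplification per the labels' protocols. The deposited normalized log2 values were an alternative: their sorted columns differ by at most 0.0069, each correlates with its own array at 0.9957 or above, and no source used here states how they were made. Positions are on mm9, per the file headers.

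Control spots, outlier spots and missing values were left out, repeated spots averaged, and each array's 75th percentile of log2 intensity subtracted. Per gene the brightest probe was taken, and genes above background on at least 3 arrays were fitted with limma 3.58.1 (R 4.3.3) with a mean for each of the 4 groups. All 16 arrays entered 1 fit, and p-values were adjusted (Benjamini-Hochberg) over 24440 genes at 0.05. The fit was tested on simulated data. The number of arrays limits the precision.

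The collagen genes and the gene lists (collagen processing, receptors and uptake, and markers of macrophages, fibroblasts and stellate cells, endothelial, ductal and epithelial, acinar and mesothelial cells) were chosen with earlier results of these data known. Values in each array were given for collagen genes called in a comparison and for bright members of each class. Of the other lists at most 8 called genes, or 3 markers of highest signal, were named, beside markers at background. RefSeq (GRCm38.p6) supplied promoters, with an entry for 35 of the 44 genes. Of 39429 probes, 28260 were named by RefSeq accession, 2207 by symbol, 174 by synonym, 66 by the collagen rule and 8722 as in the file. Alternatives covered background correction, normalization, the filter, the probe rule, the slide, array weights and leaving out arrays.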

Additional observations from a re-analysis of the deposited data

Results flagged for a closer look

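Of the 72 groups of 5 arrays examined for collagen genes, 4 held an array far from the others, where chance gives about 1 in 20. Col8a1 was at -3.83 on tumor YFP+ array 23550, the only one of its group above background, and between -7.20 and -7.00 on the other 4. Col6a6 was at -2.54 on tumor YFP- array 23550, again the only one above background, and between -7.02 and -6.49 on the others. Col11a2 was at -4.21 on tumor YFP+ array 23551 and between -2.43 and -1.94 on the others. Col25a1 was at -2.28 on tumor YFP+ array 23547 and between -2.82 and -2.70 on the others.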

How the results depend on the processing

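The count of collagen genes lower in tumor YFP+ than in tumor YFP- cells was 17 and ranged from 13 to 17 over 24 fits that left out arrays, and from 13 to 18 over 9 other settings (16 with normexp background correction, 13 with quantile normalization, 13 with the deposited log2 values, 16 of 44 without a filter, 13 of 28 with at least 8 arrays above background, 18 with the mean over probes). With the title number as a replicate block it was 14 within tumors, 0 within normal pancreas, 3 and 5 between tissues in YFP+ and YFP- cells, and 0 for the difference between tissues. The 3 calls lost within tumors were Col6a3, Col7a1 and Col24a1. The main fit did not pair the numbers because the labels state no paired or blocked test. Deviations of same-numbered arrays correlated at -0.29 to 0.314, and not every array correlated best with its own number. These correlations do not settle whether same-numbered arrays share an animal. The mean over the collagen genes was lowest on array 23912 in both normal groups. The fits that leave out 1 array alone were chosen after seeing the data.

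Within normal pancreas the count of 0 became 3 with array weights (Col1a1, Col6a3 and Col18a1), and ranged from 0 to 2 when arrays were left out. Between tissues in YFP+ cells, the count of 3 became 1 with normexp and 5 with array weights, and ranged from 1 to 5 when arrays were left out, with 1 without normal YFP+ array 23916 or 23917. In YFP- cells, the count of 5 became 3 when at least 8 arrays had to be above background, where 28 genes were tested and Col8a1 and Col12a1 were not, and ranged from 5 to 9 when arrays were left out. The difference between tissues ranged from 0 to 2, with 2 only where tumor YFP+ array 23550 was left out. The fibrillar median within tumors was -1.97 with normexp, against -3.28, while normexp moved the median over all genes to -0.12, against 0.01. The -3.28 is the value of Col5a3, which was above background on 0 of 5 tumor YFP+ arrays. The FACIT median between tissues was 0.51 in YFP+ cells without normal YFP+ array 23917, against 0.16 with it. Col16a1 within tumors reversed to -1.36 with the mean over its probes, because its probes differ in sign. Of the other values for single genes and classes over the settings, 6909 kept direction and side of the threshold or moved within their spread, 82 lost a call, 41 gained one and 22 class medians moved beyond their spread. The causes of these changes were not tested, apart from the smaller gene set and the probe mean. Signals near background limit Col5a3, Col6a3, Col24a1, Col8a1 and Col12a1.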
